A study of Oryctolagus cuniculus with 4 samples.

Results

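Tenomodulin (TNMD) and chondromodulin (CNMD) were measured in male rabbits, 34 weeks old, in the ligamentum flavum, an elastic ligament that joins one vertebral arch to the next. The members were all probes whose transcript accession is a RefSeq transcript of either rabbit gene. This gave 2 of 43603 probes, and 2 of the 1489 genes that could be named on the array. TNMD was represented by the probe A_04_P000046 for NM_001109818, and CNMD by the probe A_04_P001051 for NM_001082040, each with 1 spot per array. A further 24690 probes carry Ensembl identifiers that were not named here, so other probes for either gene were not analysed here.

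The study compared ligament under concentrated mechanical stress, ligament of fused levels and controls. The intervertebral stress concentration (ISC) level was L3/4, where the overlying muscle had also been resected, and its counterpart was a control of the same level. The fused levels were L2/3 and L4/5, joined posterolaterally with instrumentation, and their counterpart was a control of the same 2 levels. The labels of all 4 samples, the controls included, carry the same text of surgery at 18 weeks of age and an age of 34 weeks, 16 weeks later, and name no genetic modification. Each of the 4 groups was 1 sample, with Cy3-labelled cDNA from 20 ng of total RNA on 1 array, and all 4 arrays lay on 1 slide. Whether the controls had themselves been operated on, and whether animals or levels were pooled, is not given in the sources used here.

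Both genes encode membrane proteins of the cell surface that carry a BRICHOS domain and end in a similar cysteine-rich domain. Tenomodulin marks mature cells of tendons and ligaments, and in mice its gene is active downstream of the tendon transcription factor scleraxis. Chondromodulin is made mainly by chondrocytes, and its released part is stored in cartilage matrix. The end domains of both inhibit the growth of vascular endothelial cells, and both genes are active in tissues with few blood vessels.

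The arrays stood apart in the RNA of other tissues, which is given first because it touches the comparisons of the fused levels. Of the 8 ligament cell markers only TNMD and COL1A2 could be named, and the type I collagen gene COL1A2 was well above background on all 4 arrays. The 14 named skeletal muscle genes summed to 28.3 times the array's 75th percentile of signal, the unit of all sums here, at the ISC level, against 28.0 in the L3/4 control. They summed to 14.7 at the fused levels, against 868 in the L2/3 and L4/5 control, which was the array that stood apart. The 7 named blood and neutrophil genes summed to 441 at the ISC level, against 792 in the L3/4 control. Their sum was 1465 at the fused levels, against 277 in the L2/3 and L4/5 control. The 4 named adipocyte genes summed to 7.83 at the ISC level, against 4.96 in the L3/4 control. They went different ways there, with LPL at a log2 ratio of 2.43, ADIPOQ at 0.94, LEP at 0.04 and PPARG at -1.99. Their sum was 19.9 at the fused levels, against 6.06 in the L2/3 and L4/5 control. The 3 named endothelial genes summed to 1.68 at the ISC level, against 2.18 in the L3/4 control, and to 6.83 at the fused levels, against 1.66 in the L2/3 and L4/5 control. VCAM1 made up most of the sum at the fused levels, at a log2 ratio of 2.21 to the control, while SOX17 was at -0.04 and KDR was below background on both arrays. At the ISC level VCAM1 was at 0.11, with 5 probes from -1.01 to 0.13, KDR at -1.32 and SOX17 at -2.57. For KDR only 1 of 6 probes was measured in that comparison. The 6 named smooth muscle and myofibroblast genes summed to 31.0 at the ISC level, against 73.3 in the L3/4 control. There 3 of 6 were at least 2-fold lower, beside 10.5% of all features. They summed to 42.9 at the fused levels, against 66.1 in the L2/3 and L4/5 control. Here 2 of 6 were at least 2-fold lower, beside 9.12% of all features. Those 2 were DES, at -4.28, and TPM1, at -2.73, while the rest lay between -0.82 for TPM2 and 0.55 for CALD1. In the L3/4 control relative to the L2/3 and L4/5 control, DES was at -4.85 and TPM1 at -2.09. Against the L3/4 control the fused levels had DES at 0.57 and TPM1 at -0.64. All blood and adipocyte genes were well above background on every array, while of the muscle genes 1 was not at the ISC level, 3 in the L3/4 control and 2 at the fused levels.

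The spots themselves were dim. The TNMD spot had a median pixel intensity of 51 at the ISC level over a local background of 29, against 43 over 29 in the L3/4 control. At the fused levels the TNMD spot was at 33 over a local background of 31, against 48.5 over 30 in the L2/3 and L4/5 control. The fused array was thus the one on which the TNMD spot could hardly be told from its surroundings. The CNMD spot was at 45 over 26 at the ISC level, against 40 over 25 in the L3/4 control. It was at 36 over 26 at the fused levels, against 43 over 25 in the L2/3 and L4/5 control. The fused array had the smallest distance between spot and background for CNMD too.

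**Figure D1:**
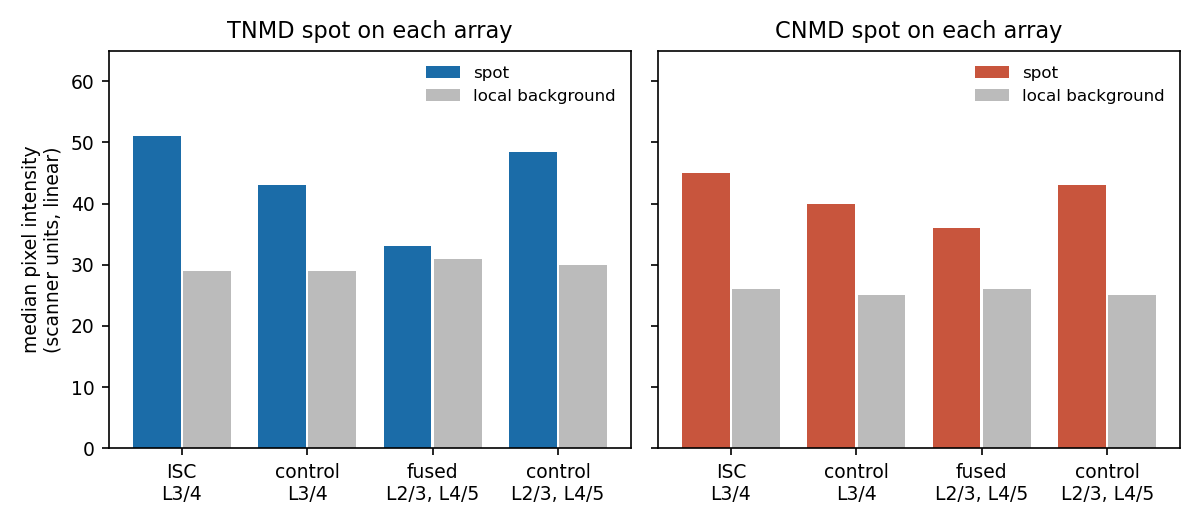
Median pixel intensity (scanner units, linear) of the TNMD and CNMD spots in colour and of their local background in grey, 1 pair of bars for each of the 4 arrays. On the fused array the TNMD spot is at 33 over a background of 31, and the CNMD spot at 36 over 26.

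After background subtraction and detrending, the TNMD signal was 22.9 ± 2.7 at the ISC level and 13.9 ± 1.9 in the L3/4 control. It was 3.11 ± 1.63 at the fused levels and 19.7 ± 2.6 in the L2/3 and L4/5 control. The errors are the scanner software's own, 1 SD for a single spot, and hold nothing of the spread between animals. TNMD was marked well above background on 3 arrays and not on the fused one, where its error was 52.4% of the signal. It was still marked there as positive and significant, and 2 of 153 negative control spots were at least as bright.

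The CNMD signal was 19.9 ± 2.7 at the ISC level and 11.996 ± 1.953 in the L3/4 control. It was 10.5 ± 2.2 at the fused levels and 17.97 ± 2.78 in the L2/3 and L4/5 control. CNMD was well above background on all 4 arrays, at the fused levels by the smallest margin, 1.51 times the lowest signal so marked on that array. Detrending multiplied the CNMD signal by 1.205 to 1.302 on the 4 arrays and the TNMD signal by 1.013 to 1.045.

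The arrays differed in brightness, so signals were set against each array's 75th percentile before they were compared. TNMD stood at 24.4% of it at the ISC level, against 26.0% in the L3/4 control, and at 3.64% at the fused levels, against 27.0% in the L2/3 and L4/5 control. CNMD stood at 21.2% at the ISC level, against 22.5% in the L3/4 control, and at 12.3% at the fused levels, against 24.7% in the L2/3 and L4/5 control. On the fused array alone both genes were thus well below their place on the other arrays. On this log2 scale TNMD was at -4.78 at the fused levels, below the lowest level well above background of -3.62 there. It was at -2.03 ± 0.17 at the ISC level, -1.94 ± 0.20 in the L3/4 control and -1.89 ± 0.19 in the L2/3 and L4/5 control. CNMD followed the same order, with -3.03 ± 0.30 at the fused levels, -2.24 ± 0.20 at the ISC level, -2.16 ± 0.23 in the L3/4 control and -2.02 ± 0.22 in the L2/3 and L4/5 control. For both genes the ISC level and both controls lay within a narrow band, 0.15 wide for TNMD and 0.22 wide for CNMD. Neighbours within that band differed by less than their combined spot error, and their order has no weight. The order also changed with the scaling. In the authors' deposited table TNMD had 533 units at the ISC level, against 521 in the L3/4 control, and 76.7 at the fused levels, against 577 in the L2/3 and L4/5 control. CNMD had 462 units there at the ISC level, against 449 in the L3/4 control, and 259 at the fused levels, against 527 in the L2/3 and L4/5 control, per the authors' deposited table.

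**Figure D2:**
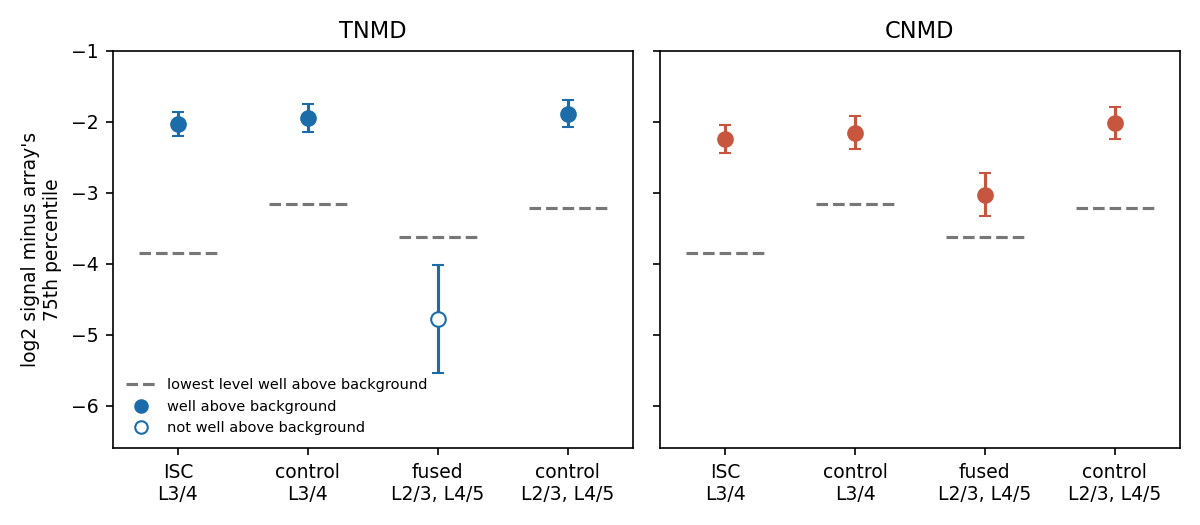
Level of TNMD and CNMD on each of the 4 arrays, as log2 signal minus the array's 75th percentile, with bars of 1 SD of the spot error and dashed lines at the lowest level well above background. Both genes lie between -2.24 and -1.89 on 3 arrays, while on the fused array CNMD is at -3.03 and TNMD, as an open circle, is at -4.78 below the dashed line.

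Setting the ISC level against the L3/4 control asks what differs in a ligament under concentrated mechanical stress, with the overlying muscle also resected. Stress and resection cannot be told apart in this comparison, and whether the control was operated on is not given. Neither gene differed by 2-fold or by more than its spot error there. TNMD was at a log2 ratio of -0.09 ± 0.26 and CNMD at -0.08 ± 0.31, ratios 0.35 and 0.28 times as large as their errors. Set against the other control, of L2/3 and L4/5, TNMD at the ISC level was at -0.15 ± 0.26 and CNMD at -0.22 ± 0.30. Of 13730 features measured in this comparison, features being genes or unnamed transcripts, 9.12% were higher by 2-fold or more and 10.5% were lower by as much. The median feature was at -0.16, and both genes stood between it and 0. The range of 1 spot error was -0.35 to 0.17 for TNMD and -0.39 to 0.22 for CNMD, and holds nothing of the spread between animals. A change within those ranges was not detectable on these arrays. With the spot median minus the local background, CNMD was at -0.46, outside its range.

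Setting the fused levels against the L2/3 and L4/5 control asks what differs in the ligament of a fused level. Both genes were lower at the fused levels. TNMD was at least 3.32-fold lower, a bound of -1.73 on the log2 scale, since its fused signal was not well above background. This bound uses the lowest signal so marked on the fused array and leaves out the control's spot error of 0.19. With the 5th percentile of signals well above background as the floor it was -1.25. The measured signals, given only as a description, differ by -2.89 ± 0.78. CNMD was at -1.01 ± 0.37, a 2.01-fold lower signal and a ratio 2.70 times its error. CNMD thus lay just past 2-fold, and its range of 1 spot error, from -1.38 to -0.63, reaches to either side of that size. Among 13718 features measured in both samples, 9.12% were lower by 2-fold or more, and the median feature was at -0.13. In bulk tissue, fewer cells of a type and less RNA per cell cannot be told apart. At the fused levels all 12 muscle genes measured on both arrays were at least 2-fold lower than in this control, with a median of -5.79, and all 7 blood and neutrophil genes and all 4 adipocyte genes were at least 2-fold higher, against 7.84% of features. The part of these other tissues in the lower TNMD and CNMD was not tested.

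Both differences were also seen when the L3/4 control stood in for the matched control, which leaves the fused array the same. TNMD at the fused levels was then at least 3.20-fold lower, and CNMD was at -0.87 ± 0.38, under 2-fold. In that comparison, without the muscle-rich array, 4 of 10 muscle genes measured and 12.9% of 13353 features were at least 2-fold lower. At least 2-fold higher were 5 of 7 blood and neutrophil genes, 3 of 4 adipocyte genes and 11.2% of features. Those 5 ran from 3.44 for BPI to 4.84 for MCP2. The haemoglobin genes were under 2-fold, HBA at 0.52, with 3 probes from 0.46 to 1.17, and HBB2 at 0.61. The controls were close to each other, with TNMD at -0.05 ± 0.28 and CNMD at -0.14 ± 0.32 in the L3/4 control relative to the L2/3 and L4/5 control. Between those controls 8.43% of features were higher by 2-fold or more and 9.16% were lower. Every one of these differences at the fused levels rests on a single array, and a difference of the fused ligament and one of that sample or array cannot be told apart.

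**Figure D3:**
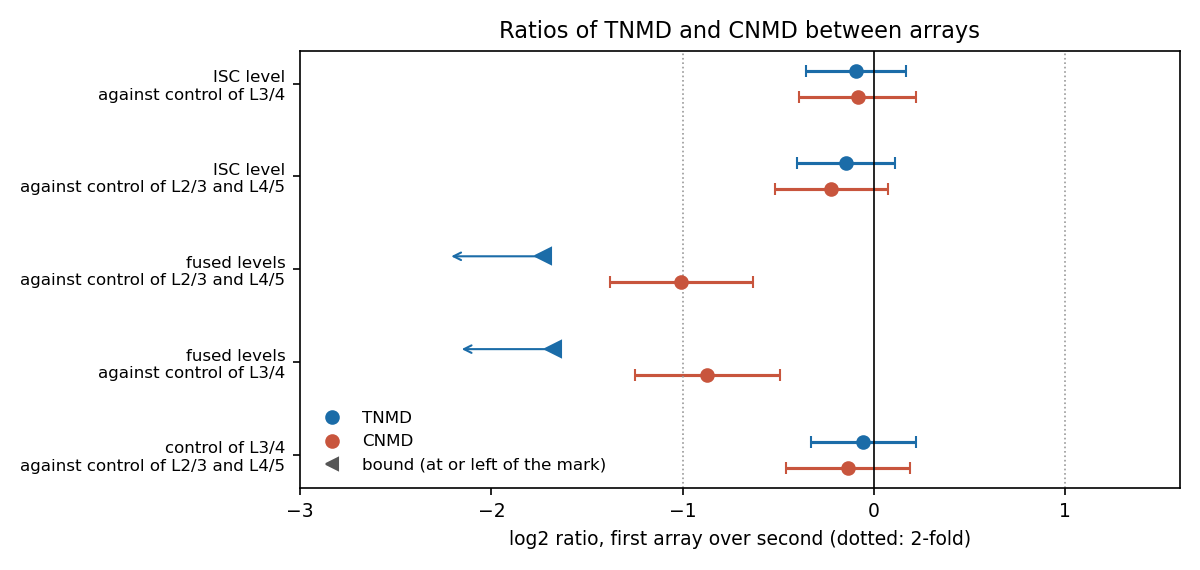
Log2 ratios of TNMD and CNMD, first array over second, with bars of 1 SD of the combined spot error and triangles with arrows for bounds; dotted lines mark 2-fold. Ratios of the ISC level to the controls and between the controls lie within 0.22 of 0, while at the fused levels CNMD is at -1.01 and -0.87 and TNMD at or below -1.73 and -1.68.

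Since both genes were dim, the counts were also taken over features of like brightness. Of 2811 features within 0.5 of TNMD's log2 level in the L2/3 and L4/5 control, 9% were not clearly above background on the fused array. TNMD was in the same state there. Of 2787 features within 0.5 of CNMD there, 16.7% were lower at the fused levels by 2-fold or more, with bounds counted. The share for features like TNMD was 16.4%. With the L3/4 control in its place, the lower shares were 19.6% for features like TNMD and 19.8% for those like CNMD. Of the features like TNMD in that control, 11.7% were not clearly above background on the fused array. The shares of lower features count bounds, which the 9.12% and 12.9% of all features do not. These windows were set after the values were seen.

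The difference at the fused levels can be set against that at the ISC level without a shared array. For CNMD the ratio at the ISC level exceeded the ratio at the fused levels by 0.92 ± 0.48. With normexp background correction, an alternative given below, this order was reversed. CNMD was then at -0.36 at the ISC level and -0.28 at the fused levels, each against its own control. Set directly against the fused levels, the ISC level was higher for TNMD by at least 3.00-fold and for CNMD by 0.79 ± 0.36. Of 14566 features in that comparison 6.99% were higher at the ISC level by 2-fold or more and 7.75% were lower by as much.

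The spot errors were compared with probes printed in several copies. Of 50 such probes, 7 to 14 per array had mean signals between 8 and 30, the range in which the members mostly lay. Their copies had a median SD of 0.17 to 0.22 on the log2 scale, and the software's errors for them had medians of 0.17 to 0.22. Single probes reached an SD of 0.48 between copies, which is larger than the errors used for TNMD and CNMD on the arrays where they were well above background.

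Genes known from tendon and ligament differed among themselves at the fused levels. Of the 5 named genes beside TNMD, 2 were at least 2-fold lower and 0 higher than in the L2/3 and L4/5 control, beside 9.12% lower and 7.84% higher over all features, with a median of -0.62 beside -0.13 for all features. BGN, the proteoglycan biglycan, was at -2.07 and LUM, lumican, which spaces collagen fibrils, at -1.36. COL1A2 was at -0.62, DCN (decorin) at 0.07 and OGN (osteoglycin) at 0.18, where the 5 OGN probes ranged from 0.18 to 1.46. At the ISC level, beside 9.12% higher and 10.5% lower over all features, 1 of the 5 was at least 2-fold higher, BGN. It was at 1.27, with a second probe at 0.47. By the brightest probe 0 of the 5 were lower by that size, and the median was -0.23. Other probes of 3 of these genes were past 2-fold lower there, down to -1.40 for DCN, -1.02 for LUM and -1.01 for OGN. COL1A2 went the other way, at 0.89 with 11 probes from 0.73 to 1.49. Unlike TNMD, BGN thus differed by 2-fold in both comparisons and in opposite directions, and LUM was at -0.57 at the ISC level. With the L3/4 control instead, 1 of the 5 was lower at the fused levels by 2-fold or more by its brightest probe. This was LUM at -1.21, beside 12.9% lower over all features. BGN was at -0.95 there, with its second probe at -1.90. Between the controls BGN itself was at -1.12 in the L3/4 control relative to the L2/3 and L4/5 control, with its second probe at -0.22.

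Cartilage genes gave a similar count. Of the 4 named beside CNMD, 2 were lower at the fused levels by 2-fold or more and 0 higher, beside 9.12% lower and 7.84% higher over all features, with a median of -1.03 beside -0.13. PTH1R, the receptor of parathyroid hormone and its related peptide in growth cartilage, was at -2.28, and MGP, an inhibitor of matrix calcification, at -1.33. COL2A1, the type II collagen of cartilage, was at -0.73, with 5 measured probes from -4.62 to -0.73, and PAPSS2, which supplies sulphate for proteoglycans, was at 0.72. At the ISC level PAPSS2 was higher by 2.06 and 0 of the 4 were lower by 2-fold or more, beside 9.12% higher and 10.5% lower over all features. COL2A1 was at -0.08 there, the lowest of 5 measured probes that reached 1.01, PTH1R at -0.14 and MGP at 0.66. Between the controls PTH1R was at -1.70 and PAPSS2 at -1.46, in the L3/4 control relative to the other, so their values depend on the control chosen. Against the L3/4 control the fused levels had COL2A1 at -0.60, PTH1R at -0.58, MGP at -1.43 and PAPSS2 at 2.18.

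The BRICHOS family held 2 further genes that could be named, and 0 of them was 2-fold apart in any comparison. Over all features 6.99% to 11.2% were higher and 7.75% to 12.9% lower by that size in those comparisons. ITM2B, a widely expressed membrane protein whose human gene is mutated in familial dementias, was at 0.12 at the fused levels and -0.62 at the ISC level. SFTPC, the lung surfactant protein C, was at -0.72 at the fused levels and 0.60 at the ISC level.

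Since both proteins inhibit endothelial growth, genes of angiogenesis were set beside them. Of 27 such genes 6 could be named. At the fused levels HGF, a growth factor for endothelial and epithelial cells, was higher by 3.40 and PLAU, the urokinase, by 1.01, with PLAU probes from -0.58 to 1.01. Over all features 7.84% were higher and 9.12% lower by that size. These values also depend on the control. Against the L3/4 control HGF at the fused levels was at 1.94, PLAU at 0.75 and FGF1 at a bound of at least 0.13, and between the controls HGF was at 1.46 in the L3/4 control relative to the other. Against the matched control FGF1 was at -1.17, HIF1A, the oxygen-regulated transcription factor, at -0.85 and FGF2 at 0.23. KDR, the main VEGF receptor of endothelial cells, was not well above background on the fused array or in its control, so no ratio is given. At the ISC level KDR was at -1.32, while HGF was at 1.56, FGF2 at 1.15 and FGF1 at least 3.77-fold higher. Members of this list thus lay on either side of 0 in both comparisons, with medians over the measured genes of 0.93 at the ISC level and 0.23 at the fused levels.

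**Figure D4:**
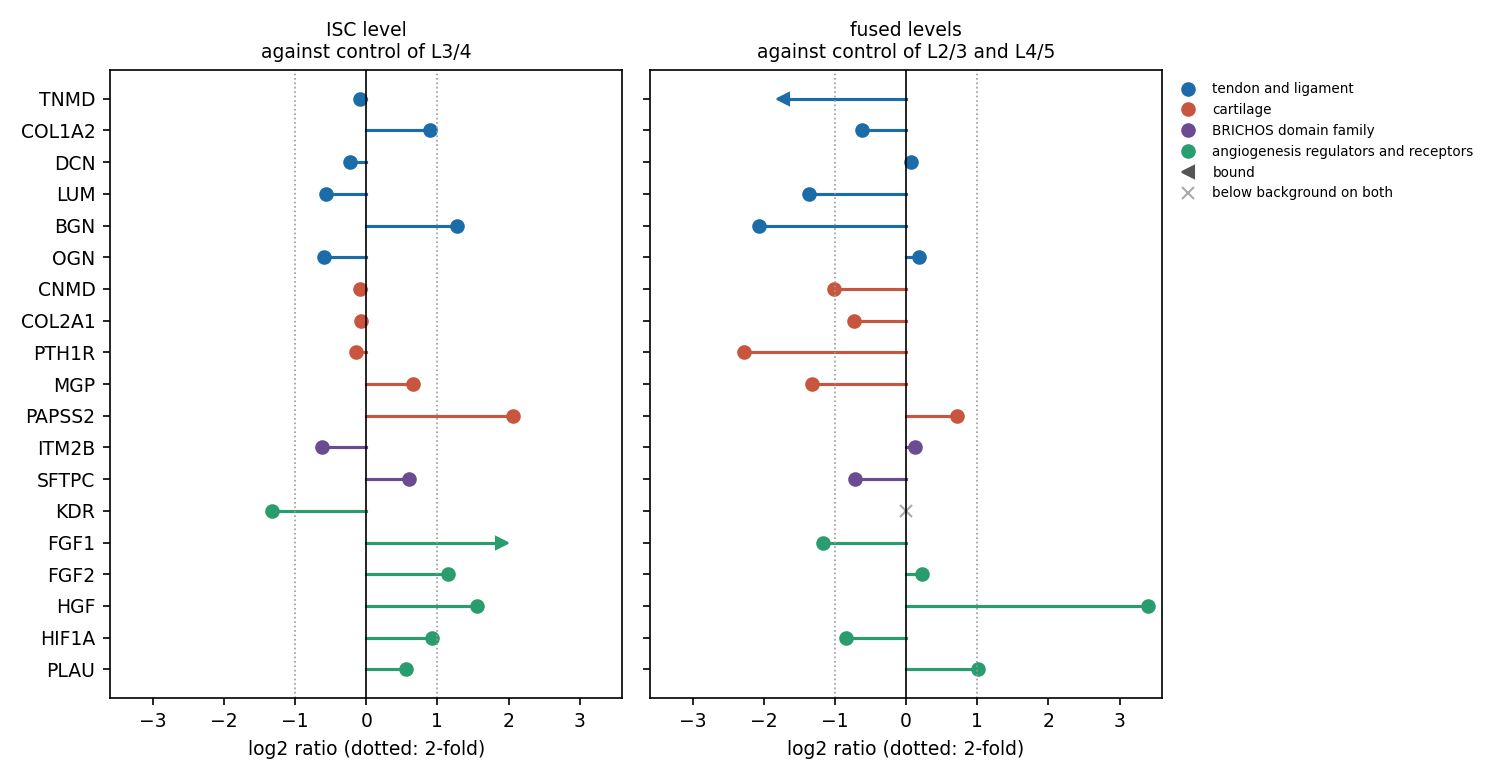
Log2 ratios of TNMD, CNMD and the named genes of 4 lists at the ISC level (left) and at the fused levels (right), each against the control of the same levels; triangles are bounds and the cross is a gene below background on both arrays. TNMD, LUM, BGN, CNMD, PTH1R, MGP and FGF1 are at least 2-fold lower on the right, and of these only BGN and FGF1 are 2-fold apart on the left, where both are higher.

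The named genes whose levels over the 4 arrays were most like those of CNMD were TAFA1, CRYAB, TERF2IP, SLC38A5, ADH2-1 and SERPINF2. Their root mean square differences from CNMD, on centred log2 levels, were 0.02 to 0.11. TAFA1, a secreted protein of the nervous system, was at -1.01 at the fused levels, and CRYAB, a small heat shock protein, at -1.04. Of 886 genes compared, 76 lay within CNMD's own spot error of 0.24, so likeness of this kind is common.

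For TNMD likeness could be taken only over the 3 arrays on which it was well above background, and there its level was nearly flat. GPATCH4, GPR162, GABARAP, POLR3K, TERF2IP and TAFA1 were closest, and 229 of 919 genes lay within its spot error of 0.19. CNMD ranked 13 among them, at a difference of 0.04. On the fused array these 6 genes parted, with ratios to the L2/3 and L4/5 control from -1.01 for TAFA1 to 0.65 for GPR162. Of the 919 genes 32 were, like TNMD, not clearly above background on the fused array, and 4 of these lay within its error on the other arrays. They were EPO (erythropoietin), DCT (a melanin enzyme), TRIM72 (a muscle membrane repair protein) and CAPN3 (the muscle calpain). CAPN3 had a bound of -1.83 at the fused levels, beside -1.73 for TNMD. Both bounds start from the same floor, so they differ only by the genes' levels in the L2/3 and L4/5 control, -1.79 and -1.89. Their nearness thus says nothing about the size of either change.

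CNMD was lower at the fused levels under all alternatives tried, and the size varied for both genes. By rule the bound for TNMD there is given only below 0, so it could be lost but could not change sign. TNMD kept a bound in all 11 alternatives, past 2-fold in 10, and CNMD a ratio past 2-fold in 5 of 10. Keeping every spot was among them and could not move either value. With normexp background correction and an offset of 50, the bound for TNMD was -0.45 and the ratio of CNMD -0.28. The ratio of CNMD at the ISC level was then lower still, at -0.36.

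**Figure D5:**
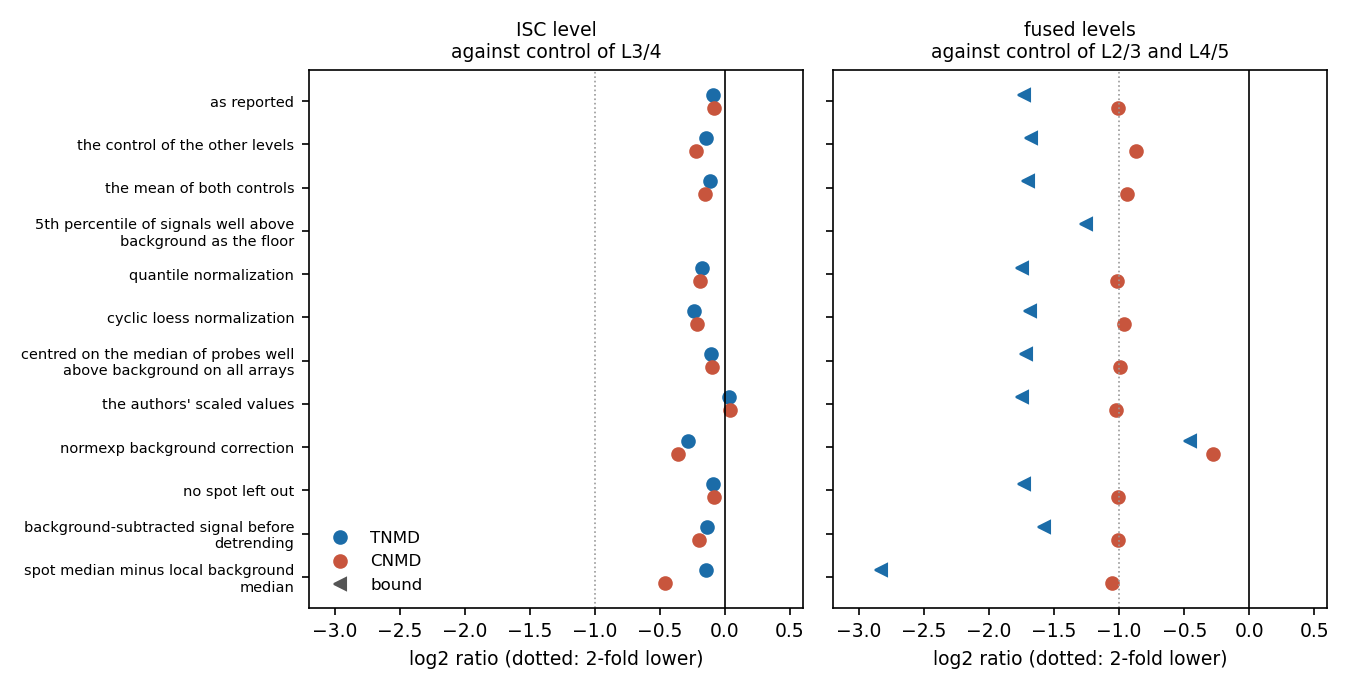
Log2 ratios of TNMD and CNMD under each processing alternative, at the ISC level (left) and at the fused levels (right), each against a control; triangles are bounds and dotted lines mark 2-fold lower. On the right all values lie below 0 and those of normexp lie closest to it, at -0.45 and -0.28.

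Across the whole series, 59.6% to 67.9% of probes per array were well above background and 0 spots were saturated. Of the features called 2-fold apart, 46.6% were higher at the ISC level and 58.9% with the scaling of the authors' deposited table, which moves the median feature from -0.16 to -0.04. With normexp the share was 66.3%. At the fused levels it was 46.2%, and 62.7% with normexp. In the L3/4 control relative to the other control it was 47.9%, and 33.7% with normexp. For the ISC level against the fused levels it was 47.4%, and 36.5% with normexp.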

How the data were processed

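RNA of rabbit ligamentum flavum was measured on single-colour (Cy3) Agilent arrays, 1 array per group. The submitters' processing notes name Agilent Feature Extraction 12.0.3. Linear spot intensities were deposited as the scanner software wrote them; per the file headers, its processed signal has the background subtracted and a spatial trend removed, and arrays were not scaled to each other. The files also give each processed signal an error and mark spots that are well above background. The authors' deposited value table equals the processed signal times 1 factor per array, and how the factor was chosen is not given in the sources used here.

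Levels are log2 processed signals relative to the 75th percentile of the array's own non-control spots, which lay between 53.4 and 93.8. Control spots and the 3 to 7 spots per array marked as outliers were left out. A transcript on an array was named by its RefSeq accession, without version, with RefSeq names (assembly mOryCun1.1, no coordinates used). This named 3792 of 43603 probes (8.70%) and 1489 genes, and a gene with several probes was represented by the brightest. The error of a ratio combines the deposited errors of both spots. With 1 array per group no test was made, and 2-fold was used as a size. A bound uses, for the dim array, the lowest signal there that is marked well above background, or the gene's own signal where that is higher. Likeness was the root mean square difference of centred levels, and the 6 closest named genes are given. The 2 genes, the lists and the rule for named genes were chosen with earlier results of these data known. Alternatives were other scalings, normexp with an offset of 50, other signal columns, other floors and other control arrays. The counting of ratios was tested on simulated data, with changes of 2 on the log2 scale planted in probes well above background on every array. It says nothing of a signal below background, as for TNMD at the fused levels, or of a ratio near 2-fold, as for CNMD there. Tools were Python 3.11.15, pandas 2.3.3, R 4.3.3 and limma 3.58.1.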

Additional observations from a re-analysis of the deposited data

Results flagged for a closer look

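BGN, biglycan, was at a log2 ratio of 1.27 at the ISC level against the L3/4 control and at -2.07 at the fused levels against the L2/3 and L4/5 control. It was marked because both ratios are past 2-fold and opposite in sign. The difference between them was not tested, with 1 array per group, and its other probe was at 0.47 at the ISC level and -2.12 at the fused levels. Against the L3/4 control BGN was at -0.95 at the fused levels, with its other probe at -1.90.

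FGF1, a growth factor for endothelial cells among others, differed in the same way. At the ISC level it was at least 3.77-fold higher than in the L3/4 control, a bound of 1.92 on the log2 scale, and at -1.17 at the fused levels against the L2/3 and L4/5 control. This difference was not tested either, and FGF1 was not well above background in the L3/4 control. Against that control the fused levels were at a bound of at least 0.13, so the lower value at the fused levels does not hold with the other control.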

How the results depend on the processing

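Alternatives to the signal column and the floor were chosen after seeing the data; the others were planned, normexp with the raw signal columns the files hold, here the spot and background medians. No ratio of CNMD at the fused levels changed sign, and TNMD kept its bound, which by rule cannot change sign. For TNMD at the fused levels against the L2/3 and L4/5 control, the bound was -1.25 with the 5th percentile of signals well above background as the floor, -0.45 with normexp and -2.83 with the spot median minus the local background. For TNMD at the ISC level against the fused levels these settings gave bounds of 1.11, 0.33 and 2.74, and the signal before detrending gave 1.38. For CNMD, normexp gave -0.28 at the fused levels against the L2/3 and L4/5 control, 0.11 at the ISC level against the fused levels and 0.19 in the L3/4 control against the other control. The spot median minus the local background gave 0.19 for that last comparison and -0.46 for the ISC level against the L3/4 control. With normexp the ratios at the fused levels lay closer to 0, but those at the ISC level against the L3/4 control lay farther from it, at -0.29 for TNMD and -0.36 for CNMD, and between the controls TNMD was at 0.16. The normexp offset of 50 was larger than the spot median minus the local background for both genes on every array. That difference ran from 2 at the fused levels to 22 at the ISC level for TNMD. For CNMD it ran from 10 at the fused levels to 19 at the ISC level. The part of this offset in the shifts with normexp was not tested. The ratio of CNMD at the fused levels was under 2-fold with cyclic loess (-0.96), with centring on the median (-0.99), against the mean of both controls (-0.94) and against the L3/4 control (-0.87). With the authors' deposited table the ratios at the ISC level were 0.03 for TNMD and 0.04 for CNMD. Other alternatives moved a ratio by less than its spot error.

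Counts of features at least 2-fold apart were 2689 at the ISC level against the L3/4 control, 2327 at the fused levels against their control, 2311 between the controls and 2147 at the ISC level against the fused levels. With a filter of 1 array well above background they were 4657, 4030, 4220 and 3593 in that order, without a filter 5898, 5168, 5559 and 4649, and with normexp 523, 699, 421 and 705. No paired analysis was possible because each group has 1 array, and none could be left out in turn. Averaging probes or taking single ones gave no further value, since each gene has 1 probe. Dim signal limits both genes, and no array measures the spread between animals: at the fused levels the spot error was 52.4% for TNMD and 20.8% for CNMD.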
